A study of Homo sapiens with 24 samples.

Results

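The comparison described here sets 143B rho0 cells against 143B rho+ cells. 143B is a human osteosarcoma line, a tumour line of bone origin, and its rho0 derivative lives without mitochondrial DNA (mtDNA). The arrays were chosen by their titles, which name 3 rho0 and 3 rho+ replicates, and these 6 arrays are part of a series of 24. By the design text, ethidium bromide treatment depleted mtDNA in the rho0 line, and its 3 samples and the 3 rho+ samples are independent biological replicates. The rho+ cells kept their mtDNA. Both lines were grown in the same high-glucose DMEM with pyruvate and uridine, and the methods name no transgene for either. Each group is a single line obtained from another laboratory, so loss of mtDNA cannot be told apart from any other difference between the 2 lines. The p-values measure the spread between cultures of these lines. RNA was read on Affymetrix HG-U133 Plus 2.0 microarrays. The values are MAS5 signals, the brightness of a probe set after background correction, and all differences below are differences in log2 signal, rho0 minus rho+.

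Human mtDNA encodes a small set of subunits of the respiratory chain and ATP synthase along with the rRNAs and tRNAs needed to translate them. Cells without it cannot respire, make ATP by glycolysis, and are grown with uridine because pyrimidine synthesis needs a working respiratory chain, and with pyruvate, which lets them reoxidise NADH. The genes described below stand mostly in the space around the cell. Fibrillar and network collagens, laminins, proteoglycans and hyaluronan build the extracellular matrix, proteases and cross-linking enzymes remodel it, and integrins, cadherins and immunoglobulin-type receptors attach cells to it and to each other. Osteosarcoma cells make much of this material themselves.

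Of 11433 genes tested, 418 were higher in rho0 cells, 883 were lower and 3 had probe sets in both directions at an adjusted p under 0.05 (limma, Benjamini-Hochberg over 22786 probe sets). Counting those 3 in each direction, 3.68% of genes were higher and 7.75% lower, and these shares are the background for every list below. The signals of the groups did not overlap in 21% of genes with rho0 higher and in 24.2% with rho0 lower. The median difference over all genes was -0.02. Quantile normalization gave 614 genes higher and 729 lower, and setting every array to one median gave 1324 higher and 566 lower, with the median of all genes at 0.28. Differences are therefore relative to the scaling.

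One array stood apart. Over 23870 probe sets, rho0 replicates 1 and 2 correlated at 0.979, whereas rho0 replicate 3 correlated with them at 0.876 and 0.884 and with the rho+ arrays at 0.858 to 0.865. The rho+ arrays correlated with each other at 0.943 to 0.954. Without rho0 replicate 3, 13.9% of genes were higher and 21.2% lower, and 1295 of the 1304 genes of the full comparison were among these 3980. Of the 154 probe sets named by rule that passed, none lost its call without that array, although 1 fell under the signal filter there and was not tested. Over the genes higher without it, the median difference from the rho+ arrays was 0.51 for rho0 replicate 3 and 1.14 for replicates 1 and 2, and over the genes lower without it -0.63 and -1.34, so the counts of most gene lists are given with and without it. Of the 154, 52 kept their call in every fit with 1 of the 6 arrays left out in which they were tested, and are called held below. Among these, 8 fell under the signal filter, and so were not tested, in at least 1 of those fits. They are ADAMTSL3, COX3, CTSK, CXCL3, DCC, GRIA3, NPTX2 and TCIM. A further 46 were lost when any array but rho0 replicate 3 was left out and are called weak. For the rest the deciding arrays are named. The signal of the 3' end of ACTB over that of its 5' end, a measure of RNA degradation, was 8.12, 6.55 and 5.53 in rho0 and 10.4, 16.1 and 17.1 in rho+ arrays (two-sided exact permutation p = 0.1, and no smaller p is possible with 3 arrays a group), and its part in the differences was not tested. As for cell identity, VIM, a mesenchymal filament protein, had signals of 14730, 15040 and 13630 in rho0 and 16470, 16610 and 12990 in rho+ cells. CDH1 of epithelial cells, PTPRC and CD3E of leukocytes, and the bone markers ALPL and IBSP had mean signals under the filter (a signal of 83.3, the median of the array). Other members of these lists were above it in every array. The epithelial KRT18 had 7060, 5672 and 6166 in rho0 and 6047, 4779 and 3774 in rho+ cells. The endothelial TIE1 had 3548, 3349 and 2265 in rho0 and 2556, 2698 and 1858 in rho+ cells. The epithelial OCLN and EPCAM were also above it throughout. Summed signals of 20 mesenchymal and osteosarcoma markers were 82050, 83360 and 54620 in rho0 and 63280, 58900 and 66610 in rho+ arrays. Of the 16 tested 5 were higher on at least 1 probe set (FN1, PRRX1, S100A4, SPARC and TWIST2) and none lower. On its brightest probe set TWIST2 had 751, 762 and 2244 in rho0 and 823, 920 and 887 in rho+ cells, so the groups overlapped. FN1 and SPARC did not pass on their brightest probe sets. The sums of 14 epithelial markers were 12000, 10890 and 9186 in rho0 and 15960, 12840 and 14000 in rho+ arrays. Those of 12 leukocyte and endothelial markers were 4176, 3787 and 2805 in rho0 and 3588, 3337 and 2272 in rho+ arrays.

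Each of the 9 tested probe sets for mtDNA transcripts, which cover 7 genes, was lower in rho0 cells. COX1, the catalytic core of complex IV, had signals of 47.4, 29.5 and 31.1 in rho0 and 32360, 28560 and 29650 in rho+ cells, a log2 difference of -9.74 (standard error 0.26, adjusted p = 4.03e-06). ND6, the complex I subunit encoded on the other strand from the rest, had 71.8, 54.7 and 39.4 in rho0 and 28350, 27540 and 26540 in rho+ cells (-9, adjusted p = 5.63e-06). The rho0 signals of both lay under the filter, so the size of these differences depends on the background and does not measure residual transcript. ATP6 of ATP synthase had 84.0, 44.1 and 31.6 in rho0 and 22410, 21260 and 19910 in rho+ cells (-8.76). COX2 of complex IV had 48.2, 14.5 and 1.33 in rho0 and 28870, 31250 and 31300 in rho+ cells on one probe set (-11.61) and -11.67 on the other. ND2 (-11.09) and COX3 (-10.40) spanned wide low values, from 3.35 to 44.4 and from 0.655 to 10.8 in rho0 cells. ND4 kept the highest rho0 signals of the group, with 149.9, 133.6 and 30.9 on one probe set against 34560, 29950 and 30930 in rho+ cells (-8.54), and 232.5, 146.9 and 64.4 against 25250, 26540 and 25150 on the other (-7.62). All of these calls held, but COX3 was not tested on leaving out any rho+ array. The 3 rho0 arrays, replicate 3 included, were thus alike in this check of the labels.

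A few nuclear probe sets behaved almost like those of mtDNA while others of the same gene did not. For PTPRO, a receptor tyrosine phosphatase, 1 probe set had 49.5, 43.8 and 17.7 in rho0 and 20610, 22040 and 21120 in rho+ cells (-9.30, adjusted p = 3.62e-05), and the other PTPRO probe sets lay under the filter in both lines. For TMEFF2, a membrane proteoglycan, 1 probe set had 1388, 657 and 241 in rho0 and 33050, 35280 and 33330 in rho+ cells (-5.81, adjusted p = 0.00282), but the other showed a difference of -0.03 (adjusted p = 0.984). For ATP5PO, the nuclear-encoded stalk subunit of ATP synthase, 1 probe set had 160, 244 and 152 in rho0 and 8058, 10770 and 9242 in rho+ cells (-5.68, adjusted p = 9.08e-05), but the brightest other one had 5939, 5301 and 8404 in rho0 and 4306, 6106 and 5043 in rho+ cells (0.33, adjusted p = 0.467). Whether the falling probe sets read the gene they are named for was not tested.

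Apart from these, the largest falls were in genes outside mitochondria. C2CD4A, a nuclear protein induced by inflammatory cytokines, had 12.3, 15.3 and 28 in rho0 and 2120, 2440 and 1502 in rho+ cells (-6.83, adjusted p = 0.000148). TCIM, a small regulator of transcription, had 5.57, 18.9 and 21.5 in rho0 and 675, 1454 and 1746 in rho+ cells (-6.51, adjusted p = 0.00192). CALCRL, the receptor of CGRP and adrenomedullin, had 40.5, 18.7 and 8.43 in rho0 and 2097, 1590 and 1252 in rho+ cells (-6.44, adjusted p = 0.00138). All 3 calls held, and all 3 genes lay under the filter in rho0 cells.

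Many of the largest rises were genes with signals near or under the filter in rho+ cells. NPTX2, a secreted pentraxin that clusters AMPA receptors at synapses, had 2199, 2244 and 1433 in rho0 and 19.8, 18.9 and 3.04 in rho+ cells (7.52, standard error 0.67, adjusted p = 0.00228, held, but not tested without rho0 replicate 1 or 2). GRIA3, a subunit of the AMPA receptor itself, was higher by 3.83 (adjusted p = 0.00763, held, but not tested on leaving out any rho0 array). Its rho+ signals of 53.8, 11.9 and 22 were also under the filter. ADRA2C, an adrenergic receptor, was higher by 3.91 (adjusted p = 0.00246), and ESX1, a homeobox factor, by 3.84 (adjusted p = 0.00338), both held. IL24, a cytokine of the IL-10 family, had 1638, 1488 and 916 in rho0 and 154, 91.3 and 30.4 in rho+ cells (4.12, adjusted p = 0.00792, held). RGS4, which switches off G proteins, was higher by 3.57 (adjusted p = 0.0182, lost at 0.0514 to 0.0540 on leaving out replicate 1 or 2 from either line). The noncoding RNA LINC00460 was higher by 3.91 (adjusted p = 0.0157, but 0.0649 without rho+ replicate 1), and NIPAL4, a magnesium transporter, by 4.27 (adjusted p = 0.0485, but 0.0835 to 0.144 without any 1 rho+ array, and not tested without rho0 replicate 1 or 2).

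The promoters of the largest rises differ in base composition. The windows of NPTX2, LAMA4 and QPRT are printed as examples with many, an intermediate number of and few CG pairs, from 250 bases before to 50 after the annotated start (RefSeq, GRCh38.p14), with each CG in capitals.
NPTX2 (chr7:98617035-98617334, + strand): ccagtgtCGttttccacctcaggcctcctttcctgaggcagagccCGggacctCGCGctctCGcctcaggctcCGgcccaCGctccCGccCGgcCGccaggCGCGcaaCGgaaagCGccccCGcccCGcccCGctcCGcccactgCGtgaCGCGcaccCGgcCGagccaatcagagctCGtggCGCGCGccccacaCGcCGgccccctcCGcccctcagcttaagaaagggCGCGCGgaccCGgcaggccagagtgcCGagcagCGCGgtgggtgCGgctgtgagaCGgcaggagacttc
LAMA4 (chr6:112254518-112254817, - strand): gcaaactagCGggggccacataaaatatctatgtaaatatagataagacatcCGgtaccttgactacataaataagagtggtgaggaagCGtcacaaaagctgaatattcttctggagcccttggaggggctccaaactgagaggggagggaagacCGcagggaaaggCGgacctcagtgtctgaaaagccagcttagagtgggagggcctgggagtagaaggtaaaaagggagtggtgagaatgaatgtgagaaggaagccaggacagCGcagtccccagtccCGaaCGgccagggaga
QPRT (chr16:29678930-29679229, + strand): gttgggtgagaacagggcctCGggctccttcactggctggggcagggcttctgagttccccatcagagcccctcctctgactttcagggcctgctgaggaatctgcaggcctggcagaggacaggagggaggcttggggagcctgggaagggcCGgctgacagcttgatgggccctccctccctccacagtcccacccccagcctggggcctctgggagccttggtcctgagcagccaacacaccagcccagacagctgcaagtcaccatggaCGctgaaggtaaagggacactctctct
NPTX2 holds 39 CG in 300 bases, a number reached by 8.48% of all 27305 promoters in the table, LAMA4 holds 8 and QPRT 3. The 9 promoters at hand of the 12 largest rises had a median of 8 CG, those of all genes called higher 27, of all called lower 25, of genes not called 27 and of all promoters 14. This is a description of letters, with no test.

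Collagens moved in both directions by gene. Of 21 chains tested 2 were higher (9.52%) and 5 lower (23.8%), with a median difference of -0.46, and without rho0 replicate 3 these were 6, 5 and 0.05. COL22A1, a chain of tissue junctions, had 1419, 1087 and 1018 in rho0 and 83.2, 33.3 and 27.9 in rho+ cells (4.77, adjusted p = 0.00192, held). COL8A1, a network-forming chain of vascular and corneal matrix, was the reverse, with 43.7, 83.7 and 71.1 in rho0 and 2558, 2126 and 1531 in rho+ cells (-4.99, adjusted p = 0.000488, held). Its partner chain COL8A2 was lower too, with 27.8, 55.0 and 66.2 in rho0 and 194, 149 and 167 in rho+ cells (-1.86, adjusted p = 0.0214, but 0.0532 without rho0 replicate 2, and not tested on leaving out any rho+ array). COL27A1, a fibrillar chain of cartilage, and COL9A3, which decorates cartilage fibrils, were lower by 1.12 and 1.14 on the log2 scale (both weak, adjusted p up to 0.113 and 0.133). COL6A2 was the second chain that was higher and COL4A6, of basement membranes, the fifth that was lower. COL1A1, the chain of bone and a marker of the line named outside the rule, had 3029, 3616 and 729 in rho0 and 1144, 278 and 2337 in rho+ cells on its brightest probe set, so the groups overlapped.

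Basement membrane genes showed one strong rise among falls. Of 21 tested 1 was higher and 3 lower, with a median of -0.39 (-0.08 without rho0 replicate 3). LAMA4, the alpha chain of mesenchymal and vascular laminins, had 4983, 4644 and 2045 in rho0 and 122, 206 and 166 in rho+ cells (4.49, adjusted p = 0.00192, held), and a second probe set gave 4.05. FREM2 and FRAS1, which form a shared complex under epithelia, were both lower. FREM2 had 52.4, 32.8 and 47.4 in rho0 and 271, 288 and 251 in rho+ cells (-2.64, adjusted p = 0.00327, held). FRAS1 had 374, 350 and 230 in rho0 and 1087, 1187 and 1671 in rho+ cells (-2.05, adjusted p = 0.00968, but 0.0508 without rho+ replicate 2). NTN1, a netrin, was lower by 1 (weak, adjusted p up to 0.117). Its cell surface receptors DCC, UNC5A and UNC5D are taken up with the guidance genes.

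Secreted matrix glycoproteins split evenly, with 5 of 44 higher, 4 lower and a median of 0.05 (14, 6 and 0.16 without rho0 replicate 3). SPARC, the collagen-binding osteonectin of bone, had 5478, 5722 and 3166 in rho0 and 1845, 1103 and 1177 in rho+ cells on 1 probe set (1.79, adjusted p = 0.02). This call was lost on leaving out rho0 replicate 1, rho0 replicate 2, rho+ replicate 2 or rho+ replicate 3 (0.0679 to 0.0949), and the brighter probe set gave 0.70 (adjusted p = 0.147). FN1, fibronectin, did not pass on its brightest probe set, with 14940, 15100 and 8191 in rho0 and 4679, 6223 and 5981 in rho+ cells (1.14, adjusted p = 0.0604), but 3 of 6 probe sets passed at 1.39 to 1.58, all weak. The rho0 arrays lay above all rho+ arrays on these FN1 probe sets, and rho0 replicate 3 was the lowest of the 3. EMILIN2, an elastin-associated glycoprotein, was higher by 1.51 on 1 of 3 probe sets (weak, up to 0.0780). NPNT, the nephronectin ligand of integrin alpha 8, had 91.2, 91.4 and 188 in rho0 and 485, 818 and 755 in rho+ cells (-2.53, adjusted p = 0.00968, but 0.0565 without rho+ replicate 2). THBS4, a thrombospondin of tendon and muscle, had 116, 130 and 132 in rho0 and 329, 480 and 373 in rho+ cells (-1.63, adjusted p = 0.0111, but 0.0623 without rho+ replicate 2). EDIL3, an integrin ligand, was lower by 1.66 (adjusted p = 0.0137, but 0.0545 to 0.0581 without any 1 rho+ array). IGFBP6 and MFAP2 also passed as higher and MATN2 as lower.

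Among proteoglycan and hyaluronan genes the calls were all rises. Of 24 tested 5 were higher (20.8%), 0 were lower and 19 did not pass, and the median was 0.16 (10 higher, 0 lower and 0.34 without rho0 replicate 3). HAS2, which spins hyaluronan into the pericellular space, had 1774, 1770 and 422 in rho0 and 26.6, 24.9 and 85.6 in rho+ cells (4.84, adjusted p = 0.00836, but 0.0502 without rho+ replicate 2). Its other probe set had 3006, 2889 and 613 in rho0 and 74.3, 43.7 and 158 in rho+ cells (4.45, adjusted p = 0.0119, but 0.0531 and 0.0602 without rho+ replicates 1 and 2). The low array of the rho0 group is replicate 3 on both. CD44, the main hyaluronan receptor, passed on 1 of 13 probe sets (2.36, adjusted p = 0.0463, weak), while its brightest had 14900, 15380 and 10540 in rho0 and 10840, 10790 and 11920 in rho+ cells (0.26, adjusted p = 0.526). BGN, biglycan of bone matrix, had 3579, 3879 and 2322 in rho0 and 1009, 524 and 898 in rho+ cells (2.03, adjusted p = 0.0148, but 0.0511 to 0.0655 without rho0 replicate 1 or 2 or rho+ replicate 2). SDC1, a syndecan, had 2665, 2172 and 1556 in rho0 and 949, 262 and 516 in rho+ cells (2.04, adjusted p = 0.0354, but 0.0997 to 0.106 on leaving out rho0 replicate 1, rho0 replicate 2, rho+ replicate 2 or rho+ replicate 3), and CSPG4, a membrane chondroitin sulphate proteoglycan, was higher by 0.95 (weak, up to 0.141). For SDC1 and CSPG4, a second probe set did not pass.

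Enzymes that mature collagen had 2 of 24 higher and 1 lower, with a median of 0.16 (9, 1 and 0.43 without rho0 replicate 3). ADAMTS2 and PCOLCE, the procollagen N-proteinase and the enhancer of the C-proteinase, were higher by 1.73 and 1.07, and LOX, which cross-links collagen and elastin, had 1751, 1578 and 998 in rho0 and 5710, 3452 and 3969 in rho+ cells (-1.61, adjusted p = 0.0237). All 3 calls were weak, with adjusted p up to 0.0649, 0.161 and 0.0798.

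Among proteases and their inhibitors 2 of 44 were higher and 5 lower, with a median of -0.19 (11, 7 and 0.11 without rho0 replicate 3, 4, 5 and 0.01 with quantile normalization), and 4 of the 5 falls held where they were tested. MMP9, the gelatinase B, had 104, 79.1 and 55.3 in rho0 and 3361, 1073 and 833 in rho+ cells (-4.23, adjusted p = 0.00696). A2M, a protease inhibitor of broad range, had 165, 208 and 105 in rho0 and 1179, 1666 and 1146 in rho+ cells (-3.09, adjusted p = 0.00339). ADAMTSL3, an ADAMTS-like glycoprotein without protease activity, was lower by 3.46 (adjusted p = 0.00759, not tested without rho+ replicate 2 or 3). CTSK, the collagen-degrading cathepsin of osteoclasts, had 46.3, 50.5 and 28.4 in rho0 and 246, 185 and 162 in rho+ cells (-2.27, adjusted p = 0.00798, not tested on leaving out any rho+ array). MMP10, stromelysin 2, had 313, 179 and 81.4 in rho0 and 1272, 2046 and 1278 in rho+ cells (-3.17, adjusted p = 0.0110, but 0.0605 without rho+ replicate 2). ADAMTS2 again and FAP, a fibroblast surface protease, were the rises.

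**Figure D1:**
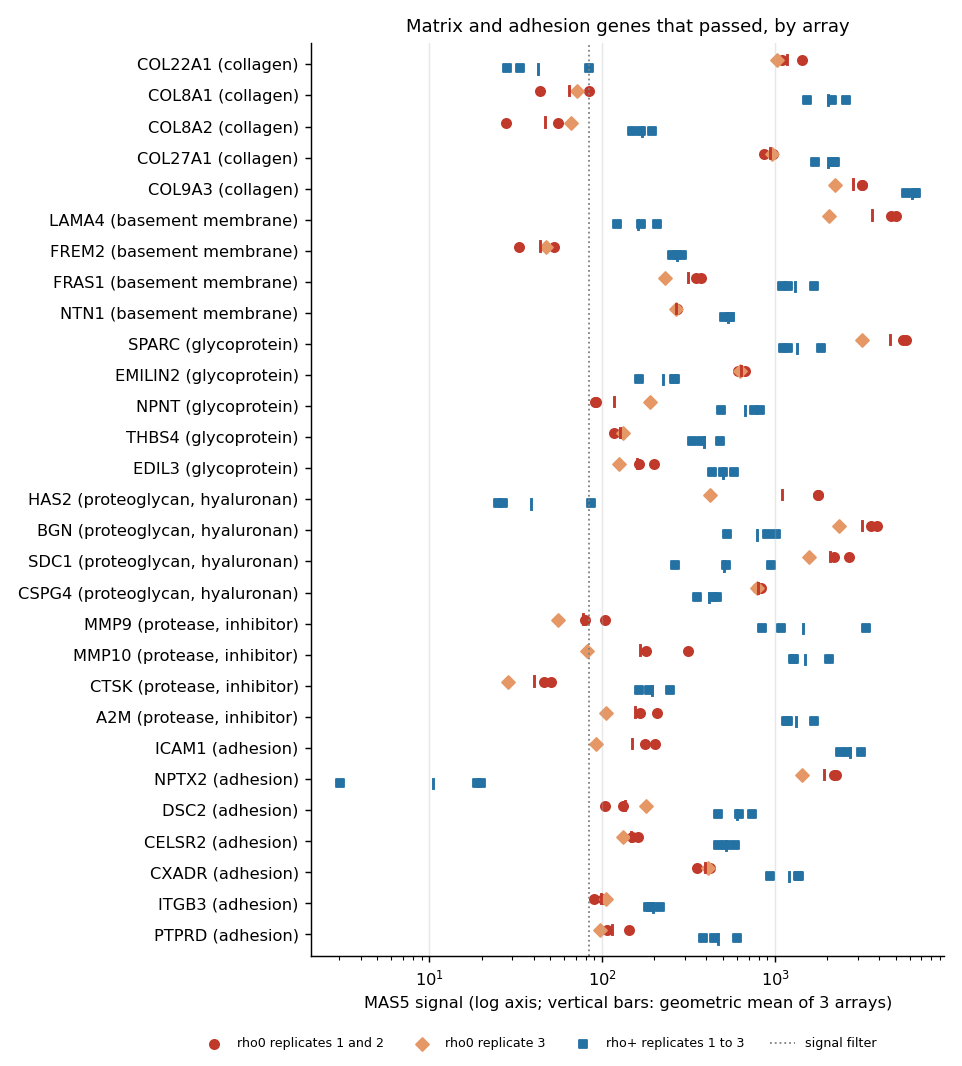
MAS5 signals (log axis) of matrix and adhesion genes that passed, 1 row a gene, with the 3 rho0 arrays (circles, and a diamond for replicate 3) above the 3 rho+ arrays (squares), vertical bars at geometric means and the signal filter dotted. COL22A1, LAMA4, HAS2 and NPTX2 have rho0 signals of 422 or more and rho+ signals of 206 or less, while COL8A1, MMP9 and ICAM1 are placed the other way round.

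Receptors that attach cells to matrix changed little. Of 19 integrin genes 0 were higher and 3 lower, with a median of -0.24 (2, 6 and 0.02 without rho0 replicate 3), and with quantile normalization none passed. ITGB3 passed on 1 of 7 probe sets (-0.99), ITGA11 on 1 of 3 (-1.47) and ITGAX on its only one (-1.46). The calls of ITGB3 and ITGAX were weak (adjusted p up to 0.144 and 0.150), and that of ITGA11 was lost without rho0 replicate 2 or any 1 rho+ array (0.0888 to 0.149). ITGB1, the common beta chain, had 17780, 20170 and 14200 in rho0 and 20750, 20660 and 19450 in rho+ cells (-0.24, adjusted p = 0.556). The proteins that anchor integrins to actin had 6 of 43 higher (14%) and 2 lower (7 and 4 without rho0 replicate 3). CAV2, a caveolin, had 2519, 1624 and 1791 in rho0 and 587, 569 and 777 in rho+ cells (1.61, adjusted p = 0.0157, but 0.0558 to 0.0795 without rho0 replicate 1 or rho+ replicate 1 or 2). The parvins, which link integrin-linked kinase to actin, differed among themselves. PARVA was higher by 1.24 on 1 of 5 probe sets (weak, up to 0.0943), PARVB was lower, and PARVG was lower by 1.99 (adjusted p = 0.0188, but 0.0544 without rho0 replicate 1, and not tested on leaving out any rho+ array). SORBS2 (2.57) and DOCK1 (1.66) also passed as higher, each on 1 probe set of several. SORBS2 was lost on leaving out replicate 1 or 2 from either line (0.0599 to 0.0860), and DOCK1 was weak (up to 0.0942).

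Cell-cell adhesion genes were lower where they passed, apart from a few immunoglobulin-type and leucine-rich receptors. Of 25 cadherins and catenins 0 were higher and 4 lower (median -0.23, and 3, 4 and -0.13 without rho0 replicate 3). CELSR2, a seven-pass cadherin of planar polarity, had 149, 162 and 131 in rho0 and 521, 465 and 582 in rho+ cells (-1.83, adjusted p = 0.00733, held). DSC2, a desmosomal cadherin, had 131, 104 and 178 in rho0 and 736, 620 and 468 in rho+ cells (-2.15, adjusted p = 0.00871, but 0.0520 without rho+ replicate 2), and all 3 of its probe sets passed. DCHS1, a protocadherin of the Fat pathway, was lower by 1.15 (weak, up to 0.110), and PCDH7 by 2.89 on 1 of 4 probe sets (adjusted p = 0.0480, but 0.0755 to 0.155 on leaving out rho0 replicate 1, rho0 replicate 2, rho+ replicate 2 or rho+ replicate 3). CDH2, N-cadherin, had 8307, 8541 and 4098 in rho0 and 7022, 7726 and 8735 in rho+ cells (-0.23, adjusted p = 0.682, and 0.11 without rho0 replicate 3). The tight junction gene OCLN was lower by 1.52 (adjusted p = 0.0168, but 0.0519 to 0.0736 without rho0 replicate 2 or any 1 rho+ array) and the epithelial adhesion gene EPCAM by 1.38 (weak, up to 0.118), which are the 2 of 4 epithelial markers that passed.

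In the immunoglobulin-type and other adhesion molecules 4 of 49 were higher and 6 lower, with a median of -0.17 (11, 7 and -0.04 without rho0 replicate 3, and a median of 0.01 with quantile normalization). ICAM1, the leukocyte integrin ligand, had 176, 202 and 92.2 in rho0 and 2597, 3144 and 2375 in rho+ cells (-4.18, standard error 0.33, adjusted p = 0.00136, held), and all 3 of its probe sets passed. CXADR, the coxsackievirus and adenovirus receptor of tight junctions, had 354, 420 and 411 in rho0 and 1345, 933 and 1376 in rho+ cells (-1.61, adjusted p = 0.0129, but 0.0512 to 0.0547 without rho0 replicate 1 or rho+ replicate 1 or 3). CNTNAP3, a contactin-associated protein, was lower by 1.55 (adjusted p = 0.0137, but 0.0505 to 0.0669 without rho0 replicate 2 or any 1 rho+ array). FLRT2, a fibronectin-leucine-rich receptor, had 1271, 1056 and 1704 in rho0 and 388, 221 and 291 in rho+ cells on 1 of 3 probe sets (2.17, adjusted p = 0.00883, but 0.0505 without rho+ replicate 2). NPTX2 is counted here too.

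Among receptor tyrosine phosphatases, some of which bind matrix or each other, 3 of 14 were lower and 0 higher (4 and 2 without rho0 replicate 3). PTPRD had 142, 107 and 96.7 in rho0 and 383, 443 and 599 in rho+ cells (-2.04, adjusted p = 0.00815, held) and passed on all 3 probe sets, PTPRE was lower by 1.71 (weak, up to 0.124), and PTPRO is counted by the probe set given above, whose target was not tested.

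Among guidance receptors, 3 netrin receptors were higher (DCC, UNC5A and UNC5D), while UNC5B and NEO1 did not pass (0.70, adjusted p = 0.128, and -1, adjusted p = 0.0734, on the NEO1 probe set with the smallest p). DCC, the attractive netrin receptor, had 385, 363 and 265 in rho0 and 30.2, 25.5 and 54.9 in rho+ cells (3.26, adjusted p = 0.00363). UNC5D had 528, 702 and 279 in rho0 and 30.7, 68.2 and 52.0 in rho+ cells (3.30, adjusted p = 0.00733), and UNC5A had 749, 742 and 1031 in rho0 and 254, 170 and 160 in rho+ cells (2.13, adjusted p = 0.00759). PLXNA4, a semaphorin receptor, had 535, 473 and 528 in rho0 and 94.6, 85.7 and 118 in rho+ cells (2.38, adjusted p = 0.00327). NRP2, the neuropilin that shares semaphorin and VEGF ligands, went the other way, with 763, 709 and 944 in rho0 and 3027, 3717 and 2547 in rho+ cells (-1.94, adjusted p = 0.00759), and 8 of its 11 probe sets passed as lower. These 5 calls held. Over the whole list of semaphorins, ephrins and their receptors 6 of 41 were higher (14.6%) and 3 lower (7.32%), with a median of -0.27 (12, 10 and 0.02 without rho0 replicate 3).

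Actin and contractile genes had 2 of 57 higher and 3 lower (4 and 10 without rho0 replicate 3). DIAPH3, a formin, was higher by 1.84 (adjusted p = 0.0105, but 0.0605 without rho+ replicate 2), and RHOB and RHOC were lower by 1.33 and 1.26 (both weak, adjusted p up to 0.109 and 0.0963). In the TGF-beta and BMP pathway, which drives matrix synthesis in bone, 3 of 44 were higher and 3 lower (7 and 7 without rho0 replicate 3, 6 and 3 with quantile normalization). BMP2 had 1786, 2546 and 1108 in rho0 and 587, 575 and 572 in rho+ cells (1.57, adjusted p = 0.0279, weak, up to 0.109), and the inhibitory SMAD7 was higher by 2.04 (adjusted p = 0.0186, but 0.0512 to 0.0847 on leaving out replicate 1 or 2 from either line), as was the BMP antagonist GREM1. BMP4 was lower by 1.33 (adjusted p = 0.0283, but 0.0559 to 0.107 without rho0 replicate 1 or 2 or rho+ replicate 1 or 3, and not tested without rho+ replicate 2), as were the BMP antagonist CHRD and the receptor ACVR2B. S100A4, a calcium-binding protein of motile mesenchymal cells, had 768, 614 and 608 in rho0 and 82.2, 102 and 84.0 in rho+ cells (2.89, adjusted p = 0.00138, held), and PRRX1, a mesenchymal homeobox factor, had 3632, 3997 and 4336 in rho0 and 1321, 1290 and 1365 in rho+ cells (1.59, adjusted p = 0.00882, but 0.0542 without rho+ replicate 2).

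Cytokines and chemokines were the list with the largest share of falls outside mtDNA among the 45 lists. Of 77 such genes on the array, 16 reached the filter, which uses the mean of all 6 arrays. Of these 16 tested 10 were lower (62.5%, against 7.75% of all genes) and 1 was higher, with a median of -2.04 (12, 1 and -2.33 without rho0 replicate 3). CXCL3 and LIF had rho0 signals under the filter and reached it only through their rho+ signals, so the share lower depends in part on the filter. The rule named CXCL3, LIF and CXCL1, and the others are given because of their values. The CXC chemokines draw neutrophils. CXCL8 had 600, 882 and 248 in rho0 and 10190, 9038 and 6531 in rho+ cells (-4.05, adjusted p = 0.00501). CXCL1 had 86.4, 193 and 58.0 in rho0 and 2059, 1243 and 2173 in rho+ cells (-4.16, adjusted p = 0.00438). CXCL2 had 132, 93.8 and 46.6 in rho0 and 1306, 956 and 760 in rho+ cells (-3.56, adjusted p = 0.00544), and CXCL3 had 35.8, 38.8 and 47.5 in rho0 and 241, 194 and 253 in rho+ cells (-2.49, adjusted p = 0.00323). CXCL1, CXCL2 and CXCL3 are close copies of one another whose probe sets may share transcripts. LIF, which signals through gp130, had 55.6, 24.6 and 65.1 in rho0 and 542, 725 and 589 in rho+ cells (-3.78, adjusted p = 0.00335), and CSF1, the macrophage growth factor, was lower by 2.28 (adjusted p = 0.00733) and passed on 4 probe sets. These 6 calls held. CCL28 was lower by 1.99 (adjusted p = 0.00792, but 0.0508 without rho+ replicate 2) and IL1A by 1.89 (adjusted p = 0.0171, but 0.0554 to 0.0787 without rho0 replicate 2 or any 1 rho+ array). IL1B was lower by 2.61 (adjusted p = 0.0350) and CCL2 by 3.83 (adjusted p = 0.0468), both weak (up to 0.111 and 0.116). For CCL2 a single rho+ array stood out, with 174, 171 and 26.2 in rho0 and 849, 547 and 4832 in rho+ cells.

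**Figure D2:**
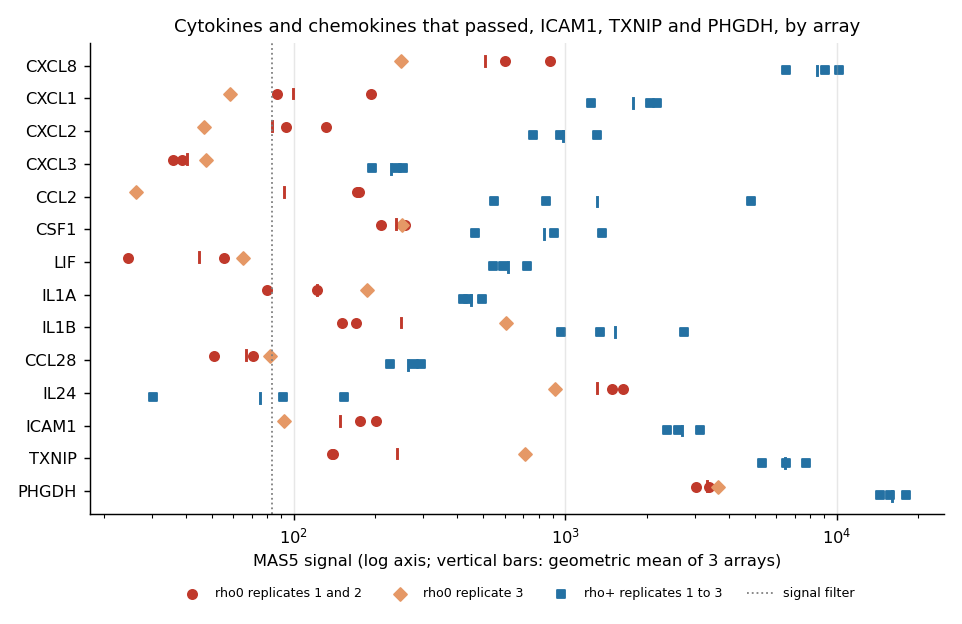
MAS5 signals (log axis) of the cytokines and chemokines that passed and of ICAM1, TXNIP and PHGDH, with the 3 rho0 arrays (circles, and a diamond for replicate 3) above the 3 rho+ arrays (squares), vertical bars at geometric means and the signal filter dotted. Only IL24 has its rho0 arrays to the right, at 916 or more. For IL1B, rho0 replicate 3 is the highest rho0 array, at 603 against 965 in the lowest rho+ array.

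NF-kB, a dimeric transcription factor, activates many of these genes and its own inhibitors. Genes known as its targets and feedback regulators were collected after these values had been seen, so the counts are a description only: 19 of 33 were lower and 1 higher, with a median of -1.71 (23, 1 and -1.84 without rho0 replicate 3), and the list holds 9 of the cytokines above along with ICAM1 and MMP9. NFKBIA, the inhibitor that NF-kB induces to end its own activity, had 237, 171 and 119 in rho0 and 1769, 1617 and 1258 in rho+ cells (-3.18, adjusted p = 0.00323). NFKBIZ, a nuclear co-regulator, had 441, 395 and 623 in rho0 and 6957, 7121 and 3471 in rho+ cells (-3.54, adjusted p = 0.00323), and TNFAIP2 was lower by 3.61 (adjusted p = 0.00968). These 3 calls held. TNFAIP3, another feedback inhibitor, had 142, 147 and 78.2 in rho0 and 614, 196 and 480 in rho+ cells and did not pass (-1.71, adjusted p = 0.0583). The activity of NF-kB was not measured.

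Short promoter windows of CXCL1, CXCL3, CXCL8 and ICAM1 are printed because all 4 genes fell and all 4 windows hold the letters GGAANTTCC, which are shown in capitals. This is one form of the kappa B motif and reads the same on both strands (RefSeq, GRCh38.p14, 250 bases before to 50 after the start).
CXCL1 (chr4:73869143-73869442, + strand): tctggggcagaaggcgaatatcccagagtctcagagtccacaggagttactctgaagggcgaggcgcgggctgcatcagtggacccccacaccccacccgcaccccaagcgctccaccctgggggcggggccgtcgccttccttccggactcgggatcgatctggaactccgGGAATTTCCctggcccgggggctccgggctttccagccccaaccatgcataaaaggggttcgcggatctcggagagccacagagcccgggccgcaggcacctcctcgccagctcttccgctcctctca
CXCL3 (chr4:74038640-74038939, - strand): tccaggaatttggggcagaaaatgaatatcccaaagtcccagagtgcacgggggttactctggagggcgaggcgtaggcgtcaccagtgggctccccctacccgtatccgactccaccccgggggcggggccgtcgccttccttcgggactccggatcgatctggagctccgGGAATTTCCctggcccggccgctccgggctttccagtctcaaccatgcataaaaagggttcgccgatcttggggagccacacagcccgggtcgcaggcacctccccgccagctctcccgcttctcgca
CXCL8 (chr4:73740319-73740618, + strand): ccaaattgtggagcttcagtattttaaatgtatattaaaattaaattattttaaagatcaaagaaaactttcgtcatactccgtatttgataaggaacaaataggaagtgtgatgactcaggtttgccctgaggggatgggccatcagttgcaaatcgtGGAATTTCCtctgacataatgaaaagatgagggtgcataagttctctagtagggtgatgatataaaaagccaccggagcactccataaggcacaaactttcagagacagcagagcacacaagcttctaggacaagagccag
ICAM1 (chr19:10270870-10271169, + strand): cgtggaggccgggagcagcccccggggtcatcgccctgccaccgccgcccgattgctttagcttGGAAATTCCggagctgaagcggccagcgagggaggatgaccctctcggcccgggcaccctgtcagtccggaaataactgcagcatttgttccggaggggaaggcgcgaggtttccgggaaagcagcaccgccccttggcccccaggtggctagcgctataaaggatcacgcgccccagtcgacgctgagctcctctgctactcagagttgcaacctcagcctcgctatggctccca
The letters stand in 4 of the 7 lower cytokines with a promoter in the table (57.1%), in 4 of 10 tested cytokines (40%), and in 264 of 27305 promoters (0.967%). They are in 1.89% of promoters of genes called higher, 2.4% of those called lower and 0.874% of those not called. CXCL1 and CXCL3 are paralogs, so their windows are alike by descent. A match is a description of the sequence and not evidence of binding.

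Further signalling genes fell, among them genes that respond to glucose or to hypoxia. TXNIP, an arrestin that limits glucose uptake and is induced by glucose, had 140, 138 and 712 in rho0 and 5306, 6524 and 7707 in rho+ cells (-4.75, adjusted p = 0.00722, held, all 3 probe sets passing). Its relative ARRDC4 was lower by 2.98 (adjusted p = 0.00977, but 0.0536 without rho+ replicate 2). Both were named after their values were seen. Of 22 hypoxia-responsive genes 5 were lower (22.7%) and 0 higher, with a median of -0.86 (12, 2 and -1.02 without rho0 replicate 3). SLC2A3, a glucose transporter, had 764, 877 and 1180 in rho0 and 5227, 5027 and 2547 in rho+ cells (-2.13, adjusted p = 0.0136, but 0.0575 and 0.0710 without rho+ replicates 1 and 2), and PFKFB4, a regulator of glycolysis, was lower by 1.42 (adjusted p = 0.0355, but 0.112 to 0.143 on leaving out replicate 1 or 2 from either line). LOX and INSIG2 were counted here too. VEGFA, the angiogenic factor, passed on 1 of 4 probe sets (-0.96, adjusted p = 0.0448, weak, up to 0.158). MIR210HG, the host transcript of a hypoxia-induced microRNA, which is outside the list, was lower by 4.23 (adjusted p = 0.0129, held, but not tested on leaving out any rho+ array). Of 26 interferon-stimulated genes 5 were lower (19.2%) and 0 higher (9 and 0 without rho0 replicate 3). PARP14 had 196, 264 and 225 in rho0 and 731, 574 and 587 in rho+ cells (-1.47, adjusted p = 0.0149, but 0.0529 to 0.0675 without rho0 replicate 1 or any 1 rho+ array), and IFIH1, a sensor of double-stranded RNA, was lower by 1.51 (adjusted p = 0.0196, but 0.0643 to 0.0949 on leaving out rho0 replicate 1, rho0 replicate 2, rho+ replicate 2 or rho+ replicate 3). Of 26 receptor tyrosine kinases 5 were lower and 0 higher with a median of 0.03, but 5 were lower and 6 higher without rho0 replicate 3, and 3 lower and 1 higher with quantile normalization. Those named by rule were ROR2, INSR and PDGFRA (-1.38, -1.43 and -1.07), none of which held (adjusted p up to 0.0891, 0.106 and 0.150 with 1 array left out).

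**Figure D3:**
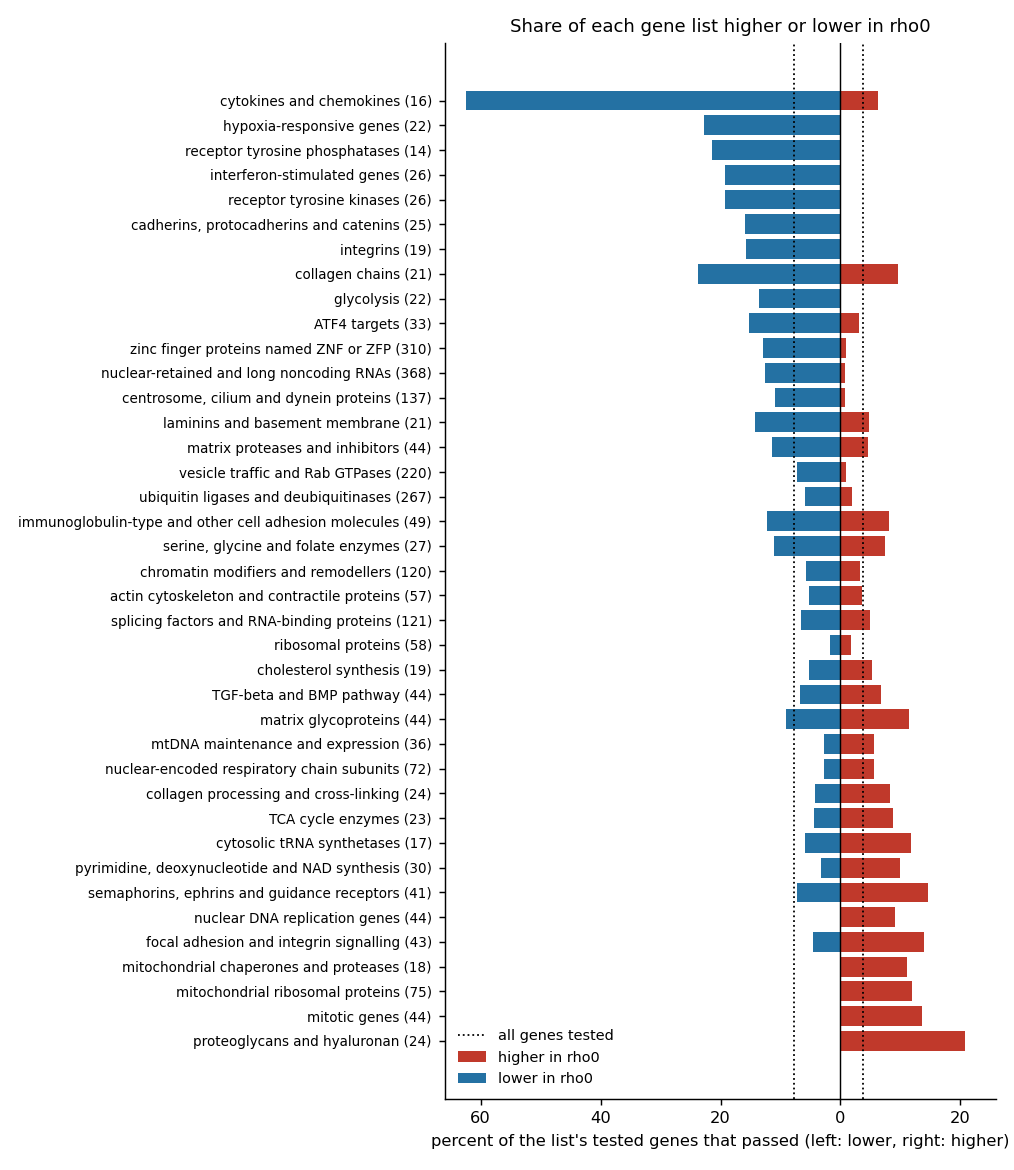
Share of tested genes in each list that were higher or lower in rho0 than in rho+ cells, in percent, with the number tested in brackets and dotted lines at the shares of all genes tested (3.68% higher, 7.75% lower). Cytokines and chemokines have 62.5% lower, and proteoglycan and hyaluronan genes 20.8% higher with 0 lower.

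The many lower genes were spread over functions. Of 886 genes with a lower probe set, 239 (27%) belong to at least 1 of the 45 lists, 76 more to lists added after the values were seen, and 571 (64.4%) to none, against 73.2% of all tested genes in none. By number the largest groups were noncoding RNAs and zinc finger genes. Of 368 long noncoding or nuclear-retained RNAs 46 were lower (12.5%) and 3 higher, with a median of -0.35 (103 and 10 without rho0 replicate 3). With quantile normalization 40 were lower and 5 higher, with a median of -0.13. Shares by signal level are given below for long noncoding RNA genes. WARS2-AS1 had 230, 181 and 178 in rho0 and 3283, 3737 and 3897 in rho+ cells (-4.22, adjusted p = 0.000211), LINC00622 had 250, 333 and 288 in rho0 and 4057, 3037 and 3753 in rho+ cells (-3.64, adjusted p = 0.000561), and LOC100128288 was lower by 3.44 (adjusted p = 0.00258). Of 310 zinc finger genes named ZNF or ZFP, mostly repressors of the KRAB family, 40 were lower (12.9%) and 3 higher (0.968%), with a median of -0.25 (81 and 21 without rho0 replicate 3). ZNF697 had 1280, 1346 and 2120 in rho0 and 10180, 9892 and 9188 in rho+ cells (-2.66, adjusted p = 0.00338), ZNF264 had 39.1, 53.4 and 38.2 in rho0 and 434, 242 and 443 in rho+ cells (-3.06, adjusted p = 0.00339), and ZNF302 was lower by 2.45 (adjusted p = 0.00710). All 6 of these calls held.

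Genes of the cilium and centrosome, of vesicle traffic and of ubiquitin transfer followed by number, but not all by share. Among 137 genes of the centrosome, cilium and dynein 15 were lower (10.9%) and 1 higher (41 and 7 without rho0 replicate 3). With quantile normalization 8 were lower and 3 higher, a share of falls no longer above that of all genes. The falls include 5 genes of the Bardet-Biedl group (BBS1, BBS2, BBS7, BBS9 and BBS12), whose products form or assemble the BBSome that carries membrane proteins into cilia, together with TTC8, a further BBSome subunit, and IFT81 and DYNC2I1 of intraflagellar transport. DYNC2I1 had 83.7, 82.8 and 99.7 in rho0 and 299, 323 and 183 in rho+ cells (-1.56, adjusted p = 0.0196, but 0.0670 to 0.0941 on leaving out replicate 1 or 2 from either line). CEP126, a centrosomal protein, was lower by 1.78 (weak, up to 0.101). Among 220 genes of vesicle traffic 16 were lower (7.27%) and 2 higher, near the background (55 and 10 without rho0 replicate 3). RAB4A, which recycles receptors from endosomes, had 99.9, 105 and 181 in rho0 and 559, 919 and 599 in rho+ cells (-2.45, adjusted p = 0.00763, held), VPS13C, a lipid transfer protein, was lower by 1.55 (adjusted p = 0.00994, but 0.0565 without rho+ replicate 2), and STX2, a syntaxin, by 1.83 (adjusted p = 0.0157, but 0.0631 and 0.0787 without rho+ replicates 1 and 2). A second STX2 probe set did not pass (adjusted p = 0.198). Among 267 ubiquitin ligases and deubiquitinases 16 were lower (5.99%, under the 7.75% of all genes) and 5 higher (59 and 24 without rho0 replicate 3). RNF128 had 444, 438 and 163 in rho0 and 4909, 3702 and 2873 in rho+ cells (-3.56, adjusted p = 0.00629), TRIM45 had 156, 127 and 198 in rho0 and 1045, 954 and 989 in rho+ cells (-2.65, adjusted p = 0.00276), and TRIM9 was lower by 2.31 (adjusted p = 0.00554). These 3 calls held, but a second TRIM9 probe set did not pass (adjusted p = 0.116).

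Other functions among the falls were sorted into lists only after the values had been seen, and their counts are descriptions. Solute carriers had 23 of 219 lower and 7 higher, but the median of -0.08 turned to 0.16, with 43 lower and 56 higher, without rho0 replicate 3. SLC40A1, the iron exporter ferroportin, had 36.1, 31.1 and 53.4 in rho0 and 329, 564 and 611 in rho+ cells (-3.63, adjusted p = 0.00251, held). Ion channels had 9 of 49 lower and 0 higher, glycosyltransferases 9 of 59 lower and 1 higher, and cyclic nucleotide phosphodiesterases 3 of 12 lower and 0 higher. The 4 glutathione transferases that were lower of 12 (GSTM1 to GSTM4) are near-identical neighbours on chromosome 1 whose probe sets can share transcripts. Of the 4 Argonaute genes, whose products carry small RNAs, 3 were lower (AGO1, AGO3 and AGO4). For AGO3 2 of 4 probe sets passed, at -2.23 (adjusted p = 0.0244, but 0.0560 to 0.107 without rho0 replicate 1 or any 1 rho+ array) and -1.39 (weak). Of 35 autophagy genes 6 were lower and 1 higher, with a median of -0.28. ULK2, a kinase that starts autophagy, had 22.2, 33.7 and 22.9 in rho0 and 335, 585 and 507 in rho+ cells (-4.17, adjusted p = 0.000830, held, but not tested without rho+ replicate 2 or 3), and a second probe set was lower by 2.26 (held). SAT1, which acetylates polyamines for export, had 124, 168 and 193 in rho0 and 1326, 796 and 742 in rho+ cells on 1 probe set (-2.54, adjusted p = 0.00703, held), and its other probe sets were lower by 1.40 and 2.05. PROM1, a membrane glycoprotein used as a stem cell marker, was lower by 3.87 (adjusted p = 0.00434), and SCUBE1, a secreted and surface glycoprotein, by 4.35 (adjusted p = 0.00750). Both held, but SCUBE1 was not tested on leaving out any rho+ array.

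As a class, lower genes were longer and dimmer. Their median genomic span was 50.5 kb, against 29.1 kb for higher genes and 30.7 kb for genes not called, and their median mean log2 signal was 8.82, against 9.99 and 9.64. By RefSeq type, 55 of 491 long noncoding RNA genes were lower and 5 higher (median -0.31). For 165 pseudogenes these counts were 18 and 0 (median -0.26), and for 10742 protein-coding genes 810 and 416 (median -0.01). Genes were also split by mean signal into levels 1 (dimmest) to 4 (brightest). At level 1, 9.32% of 311 long noncoding RNA genes and 10.5% of 2440 protein-coding genes were lower. At level 2 these shares were 15.4% of 104 and 9.41% of 2698, and at level 3 18.9% of 53 and 6.26% of 2781. At level 4, 0 of 23 long noncoding RNA genes and 4.46% of 2823 protein-coding genes were lower.

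Nuclear genes for mitochondria were higher more often than lower, by small amounts. Mitochondrial ribosomal protein genes had 9 of 75 higher (12%) and 0 lower, with a median of 0.40 (17, 2 and 0.33 without rho0 replicate 3). MRPS12 had 1558, 1669 and 1419 in rho0 and 571, 490 and 579 in rho+ cells (1.5, adjusted p = 0.0111, but 0.0663 without rho+ replicate 2). Respiratory chain subunits encoded in the nucleus had 4 of 72 higher and 2 lower, which were ATP5PO and ATP5PB, with a median of 0.41 and 61 of 72 above 0 (11 higher and 1 lower without rho0 replicate 3, 6 and 0 with quantile normalization). ATP5PO is counted by the probe set given above, whose target was not tested. NDUFA6 of complex I had 3329, 3768 and 4301 in rho0 and 1571, 1261 and 1733 in rho+ cells (1.32, adjusted p = 0.0204, weak, up to 0.0978). Genes of mtDNA maintenance and expression had 2 of 36 higher and 1 lower, with a median of 0.39 (10, 3 and 0.48 without rho0 replicate 3). TOP1MT, the mitochondrial topoisomerase, was higher by 1.27 (weak, up to 0.105) and PPARGC1A, a coactivator of mitochondrial biogenesis, had 97.4, 145 and 160 in rho0 and 388, 353 and 913 in rho+ cells (-1.93, adjusted p = 0.0284, weak, up to 0.0905). TFAM, which packages mtDNA, had 6378, 6710 and 3974 in rho0 and 4834, 4215 and 5187 in rho+ cells (0.23, adjusted p = 0.633), and POLG, the mtDNA polymerase, had 1230, 1091 and 1107 in rho0 and 1380, 1398 and 931 in rho+ cells (-0.09, adjusted p = 0.849), so the groups overlapped for both. Cell cycle genes had 6 of 44 mitotic genes higher and 0 lower (median 0.64) and 4 of 44 replication genes higher and 0 lower (median 0.52). Without rho0 replicate 3 these were 8 and 1 (median 0.41) and 12 and 0 (median 0.66), and quantile normalization gave 8 replication genes higher. GMNN, the replication licensing inhibitor, had 5851, 5536 and 5261 in rho0 and 2297, 1315 and 2316 in rho+ cells (1.54, adjusted p = 0.0209, weak, up to 0.0787).

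Metabolic enzymes differed one by one. QPRT, which makes NAD from tryptophan breakdown, had 617, 792 and 884 in rho0 and 47.0, 57.3 and 44.8 in rho+ cells (3.94, adjusted p = 0.000475, held), and NADK, which phosphorylates NAD, was higher by 1.37 (weak, up to 0.107). Other NADK probe sets did not pass (adjusted p = 0.151 and 0.476). CAD, which starts pyrimidine synthesis ahead of the step that uses the respiratory chain, had 870, 973 and 706 in rho0 and 376, 348 and 488 in rho+ cells (1.08, adjusted p = 0.0423, weak, up to 0.159). A second CAD probe set did not pass (adjusted p = 0.561). Of 27 enzymes of serine, glycine and folate 2 were higher and 3 lower, with a median of 0.00 (6 and 6 without rho0 replicate 3). PHGDH, which opens serine synthesis, had 3021, 3394 and 3644 in rho0 and 14380, 15740 and 17940 in rho+ cells (-2.25, adjusted p = 0.00339, held). PSAT1, the next step of the pathway, and the folate enzymes SHMT2 and MTHFD2 did not follow it. PSAT1 had 7778, 9115 and 8162 in rho0 and 7533, 8769 and 13640 in rho+ cells (-0.21, adjusted p = 0.665), SHMT2 had 14460, 14470 and 12660 in rho0 and 12800, 14470 and 15420 in rho+ cells (-0.04, adjusted p = 0.940), and MTHFD2 had 5000, 5595 and 6867 in rho0 and 6860, 7985 and 8704 in rho+ cells (-0.44, adjusted p = 0.284). MTHFD2L, the paralog of MTHFD2, was lower by 1.93 on 1 of 4 probe sets (weak, up to 0.0790). Of 23 TCA cycle enzymes 2 were higher (DLD and MDH2) and 1 lower (IDH1, on 1 of 3 probe sets), with a median of 0.49 (the same counts and 0.34 without rho0 replicate 3). A second probe set of DLD and of MDH2 did not pass (adjusted p = 0.192 and 0.0818). The call of DLD was weak (up to 0.121), and that of MDH2 was lost on leaving out replicate 1 or 2 from either line (0.0902 to 0.117).

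Some differences were shared by neighbours on a chromosome. Tested genes were cut into 467 runs of 25 neighbours in map order, and runs with a median of at least 0.45 in size were joined, a limit chosen after the values had been seen. On chromosome 14, 86 of 390 genes were lower (22.1%) and 3 higher, with a median of -0.55, which was alike in each rho0 array (-0.53, -0.49 and -0.52, against -0.01, 0.01 and 0.01 in the rho+ arrays, relative to the rho+ mean). On chromosome 4, 65 of 435 were lower and 6 higher (median -0.33), and on chromosome 8, 45 of 431 were higher and 16 lower (median 0.35). The deepest stretch ran from PRMT6 to ANP32E on chromosome 1, where 62 of 125 genes were lower, 0 higher and the median was -1.13. Other low stretches were KANK1 to MOB3B on chromosome 9 (20 of 50 lower, median -0.86), CDKL1 to TDP1 on chromosome 14 (51 of 175 lower, median -0.73) and OSTC to ABCE1 on chromosome 4 (22 of 75 lower, median -0.74). High stretches were R3HCC1 to IKBKB on chromosome 8 (18 of 75 higher, median 0.63) and MPST to TCF20 on chromosome 22 (14 of 75 higher, median 0.56). The low runs together hold 798 genes, 6.98% of those tested, and 223 of the 886 lower genes (25.2%). Within them 27.9% of genes were lower, against 6.23% outside. The low runs were picked by their medians in these same values, so a larger share inside follows from the choice.

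**Figure D4:**
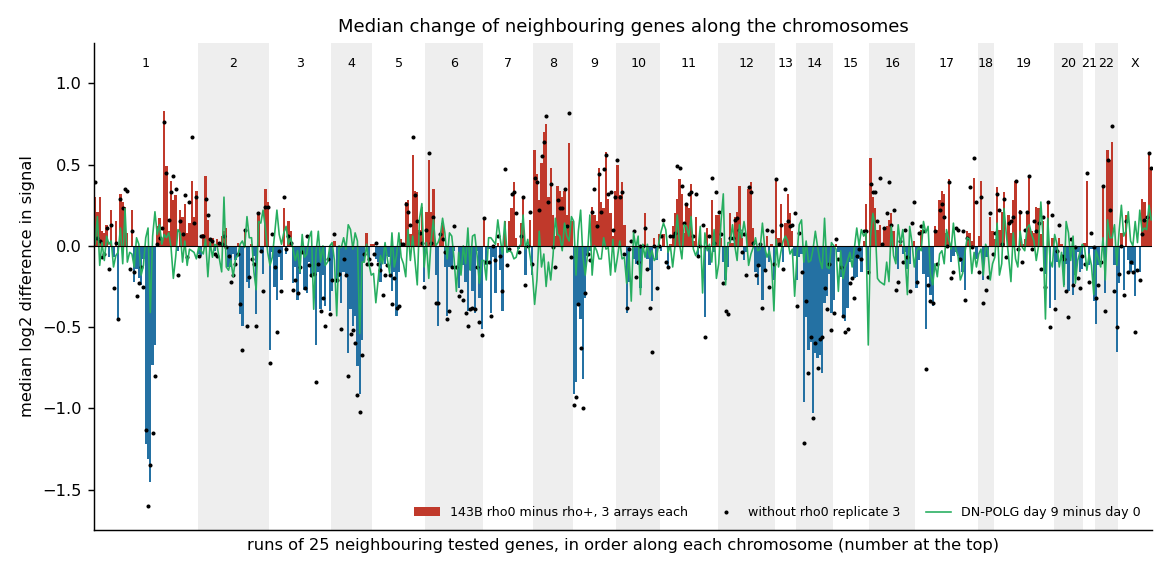
Median log2 difference (rho0 minus rho+) in runs of 25 neighbouring tested genes along each chromosome, red above and blue below 0, with black dots for the same medians without rho0 replicate 3 and a green line for day 9 minus day 0 of HEK293 DN-POLG cells. Blocks of low runs stand on chromosomes 1, 4, 9 and 14 and high runs on 8 and 22, and the dots of the low stretches named above are on the same side of 0 as their bars.

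Several of the genes named above lie in these stretches, so the values of their neighbours are given beside them. PHGDH, ZNF697, WARS2-AS1 and LINC00622 share the run from SPAG17 to ANKRD34A on chromosome 1, where 7 of 25 genes were lower and the median was -0.73. CSF1 and RHOC lie in the run from GSTM2 to LINC01356, where 20 of 25 were lower (median -1.31), and TXNIP in that from POLR3GL to ANP32E (5 of 25, median -0.61). CXCL1, CXCL2, CXCL3, CXCL8, FRAS1 and MTHFD2L lie in the run from ADAMTS3 to BMP2K on chromosome 4 (7 of 25, median -0.66), and NFKBIA in that from COCH to SEC23A on chromosome 14 (9 of 25, median -0.96). Of the 10 lower cytokines 5 lie in low runs, as do all 3 lower serine and folate enzymes, 8 of 16 lower ubiquitin genes, 12 of 46 lower noncoding RNAs and 2 of 40 lower zinc finger genes. The differences of CXCL8 (-4.05), TXNIP (-4.75), NFKBIA (-3.18) and PHGDH (-2.25) were farther from 0 than the medians of their runs, and that of RHOC was not. The runs include these genes, and only genes that passed are compared here. ICAM1, MMP9, LIF, COL8A1, LAMA4, HAS2 and NPTX2 lie outside the low runs. DNA copy number was not measured on these arrays, and its part was not tested.

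The 143B lines differ in the long term, whereas HEK293 DN-POLG cells, an embryonic kidney line in which a doxycycline-induced dominant-negative polymerase stops mtDNA replication, were read after 9 days. Set against day 9 minus day 0 of DN-POLG cells (3 arrays each), the rho0 minus rho+ difference was itself different for 641 of 11693 genes (5.48%, limma interaction). The lines differ in tissue and in treatment as well as in time. All 7 mtDNA genes fell further in 143B rho0 cells. PHGDH went in opposite directions, with -2.25 here and 0.90 in DN-POLG cells (difference -3.16, adjusted p = 0.000573). HAS2 lay under the filter in DN-POLG cells on both days, so its difference from 143B cells has no measured size. The neighbour medians of DN-POLG cells were near 0 along chromosome 14 (-0.02) and chromosome 8 (-0.03), where those of 143B rho0 cells were -0.55 and 0.35.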

How the data were processed

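The authors hybridised RNA to Affymetrix HG-U133 Plus 2.0 arrays and made the deposited intensity values, MAS5 signals, with Expression Console, which scales each array to a common trimmed mean. From these, log2 signals were compared with limma 3.58.1 (R 4.3.3), 3 rho0 against 3 rho+ arrays, with Benjamini-Hochberg adjustment at 0.05 over 22786 probe sets with 1 gene symbol and a mean log2 signal no lower than 6.38, the median of these arrays. The number of arrays limits the precision, with a median SD of 0.37 in rho0 and 0.28 in rho+ arrays. Of 54675 probe sets, 41097 carry 1 gene symbol and 11777 none. A gene was called by any of its probe sets, and list medians use the brightest. Named genes were the mtDNA transcripts, the 12 largest rises and falls with groups apart, up to 5 passing genes of each matrix or adhesion list and up to 3 of any other, and a fixed set including PHGDH, HAS2 and FN1. VEGFA, CXCL8, TXNIP and other genes given as chosen by their values lie outside that rule. The members, lists and rule were chosen with earlier results of these data known. The methods' ANOVA, other scalings, filters and offsets and leaving out each array were alternatives. The procedure was tested on simulated data. Same-numbered arrays did not deviate together (correlations 0.07, -0.18 and -0.12).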

Additional observations from a re-analysis of the deposited data

Results flagged for a closer look

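The rho0 minus rho+ difference was set against the day 9 minus day 0 difference of HEK293 DN-POLG cells, and the difference between the 2 was tested with limma across all genes. Among the mtDNA transcripts and the genes fixed by name it passed for 12 probe sets. For the mtDNA transcripts the 143B difference was the lower one, by -6.25 for ATP6 (adjusted p = 8.75e-05), -9.58 for COX1 (6.98e-08), -9.75 and -9.81 for COX2 (0.00265 and 0.000939), -9.32 for COX3 (0.00418), -10.37 for ND2 (0.00024), -7.91 and -7.44 for ND4 (0.000108 and 4.58e-05) and -6.47 for ND6 (9.96e-05). In DN-POLG cells the log2 differences were -2.51 for ATP6, -0.16 for COX1 and -2.53 for ND6. Apart from some ND4 and ATP6 signals, those of rho0 cells lay under the filter, so these sizes depend on the background too.

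PHGDH differed by -3.16 (adjusted p = 0.000573), being lower in rho0 cells and higher by 0.90 on day 9 of DN-POLG cells. HAS2 on its brighter probe set differed by 4.29 (adjusted p = 0.0277), but its mean signals in DN-POLG cells, 25.2 on day 9 and 22.6 on day 0, lay under the filter, so this size depends on the background. PTPRO on 1 probe set differed by -8.30 (adjusted p = 1.57e-05), with -1 in DN-POLG cells. This is the probe set that behaved almost like those of mtDNA, and whether it reads PTPRO was not tested.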

How the results depend on the processing

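No named difference that passed changed sign. Those that did not pass could: without rho0 replicate 3, CDH2 stood at 0.11 in place of -0.23 and SHMT2 at 0.03 in place of -0.04, and ITGB1, PSAT1 and POLG changed sign with one median per array, to 0.07, 0.09 and 0.21. The counts of genes called moved with the setting. Against 421 higher and 886 lower genes, the 3 genes with probe sets in both directions counted in each, one median per array gave 1324 and 566, no signal filter 65 and 311, a stricter filter 362 and 407, array weights 2406 and 3103, the methods' ANOVA 27 and 62, and a fit over all 24 arrays 1076 and 1302. Leaving out 1 array gave 40 to 1584 higher and 143 to 2422 lower genes. The most came without rho0 replicate 3, with 1584 and 2422, and the fewest without rho+ replicate 2, with 40 and 143. The 641 genes whose difference departed from that of DN-POLG cells became 236 with no filter, 1647 over all 24 arrays and 207 to 2112 with 1 array left out. The causes were not tested. The arrays share replicate numbers but no stated pairing, and a fit with the replicate number as a block gave 131 higher and 425 lower genes, and 127 for the difference from DN-POLG cells. With 3 arrays a group and 1 that stood apart, weak calls are those that most need more arrays, and signals under the filter have no reliable order.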
